A study of Mus musculus with 20 samples.

Results

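Cytosolic ribosomal protein genes encode the proteins of the large (Rpl) and small (Rps) ribosomal subunit. They were taken from the table of read counts by symbol, as every row whose name is Rpl or Rps, a number and at most a short ending such as a, x, l or l1. The rule found 79 of 33899 named genes, 47 of the large and 32 of the small subunit, and 77 of them passed the filter on low counts. The other two were Rpl10l, with 0 reads in all 20 libraries, and Rpl3l, with 5 reads in all. Mice express these paralogs mainly in testis (Rpl10l) and in striated muscle (Rpl3l).

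The libraries come from adipocyte precursor cells, the stem and progenitor cells of fat, isolated from C57Bl6/J females that were 8 to 11 weeks old. Visceral fat (VWAT) is the perigonadal depot and subcutaneous fat (SWAT) the inguinal depot. The VWAT HFD and SWAT HFD groups ate a high-fat diet with 60% lard for 3 days, and the VWAT SD and SWAT SD groups ate a standard diet and were taken at day 0. Each group has 5 libraries, and each library is a pool of cells from 3 mice, so single mice are not resolved. The cells were sorted as negative for CD45 and CD31 and positive for CD29, CD34 and Sca1, with CD24-positive and CD24-negative cells together. The comparisons set diet against diet within a depot and depot against depot on the same diet.

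In the cytosol, each ribosome joins ribosomal proteins with ribosomal RNA, and a dividing cell spends much of its transcription on making ribosomes. Vertebrate ribosomal protein mRNAs start with a 5′ terminal oligopyrimidine tract, a C at the first base followed by a run of C and U, through which LARP1 and mTORC1 control whether they are translated. That control acts on translation, which counts of polyadenylated RNA do not measure. Several members have a near copy elsewhere in the genome, such as Rpl22l1 for Rpl22, Rpl39l for Rpl39 and Rps27l for Rps27, whose protein can take the place of the parent's in the ribosome.

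Annotated transcription starts were available for 59 of the 79 members, with 71 start windows, from RefSeq on GRCm38.p6. The sequences below give 15 bases on each side of the boundary at the annotated start, so that the 16th letter is the first transcribed base. Capitals mark runs of at least 6 pyrimidines (C or T). The first group shows 5 members with the tract at the start, of which Rps10 and Rps27 fell on HFD in both depots, Rps18 and Rpl28 were called lower in VWAT and not in SWAT, and Rpl14 in neither. The second group sets parents beside the near copies whose values are given further on.
Rps18: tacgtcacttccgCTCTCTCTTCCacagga
Rps10: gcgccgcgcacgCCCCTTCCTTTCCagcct
Rpl28: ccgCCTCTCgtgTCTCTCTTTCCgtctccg
Rps27: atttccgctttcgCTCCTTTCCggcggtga
Rpl14: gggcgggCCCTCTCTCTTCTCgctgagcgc
Rpl22: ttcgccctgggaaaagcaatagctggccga
Rpl22l1: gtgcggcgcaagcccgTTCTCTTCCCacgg
Rpl39: cctaagctccgcctctagcgaCTTCTTCTa
Rpl39l: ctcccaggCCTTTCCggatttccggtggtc
Rps27l: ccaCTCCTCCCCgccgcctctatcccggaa

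Each window spans the end of the promoter and the first transcribed bases of the gene. The windows are Rps18 at chr17:33955651-33955680 on the minus strand, Rps10 at chr17:27635230-27635259 on the minus strand, Rpl28 at chr7:4792950-4792979 on the plus strand, Rps27 at chr3:90213634-90213663 on the minus strand and Rpl14 at chr9:120571502-120571531 on the plus strand. The others are Rpl22 at chr4:152325711-152325740 on the plus strand, Rpl22l1 at chr3:28805493-28805522 on the plus strand, Rpl39 at chrX:37085208-37085237 on the minus strand, Rpl39l at chr16:10170213-10170242 on the plus strand and Rps27l at chr9:66946071-66946100 on the plus strand. A C at the annotated first base followed by 4 pyrimidines was present in 12 of 71 member windows (16.9%) and in 2.51% of the 32851 windows of all genes. Allowing the tract to begin within 5 bases of the annotated start, it was in 30 member windows (42.3%) and in 18.3% of all windows. Over the whole window (250 bases before to 50 after the start), the letters CCGGAAG stood on either strand in 24 member windows (33.8%) and 8.86% of all windows. The letters TCTCGCGA, which do not overlap CCGGAAG, stood on either strand in 12 (16.9%) and 0.995%. These shares describe letters in annotated windows, not binding sites.

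The libraries held 14.4 to 47.5 M reads on named genes. The library labelled VWAT SD 5 carried subcutaneous markers (Tbx15, En1, Shox2 and Irx3 summed to 95.6 counts per 1000000 gene reads, CPM, against 2.34 to 7.87 in the other VWAT libraries), and the library labelled SWAT SD 5 carried visceral ones (Wt1, Tcf21, Gata4 and Gata6 summed to 197 CPM, against 11.1 to 34.6 in the other SWAT libraries). Results are therefore given with all 20 libraries and, where it matters, with the 18 that leave out both. 2 other libraries stood apart from their group in ribosomal protein genes, VWAT SD 1 and SWAT SD 3, as described below. Precursor markers (Pdgfra, Cd34, Ly6a, Itgb1, Pdgfrb and Dcn) summed to 9798 to 13792 CPM in VWAT HFD, 6160.5 to 15356 in VWAT SD, 9928 to 11325 in SWAT HFD and 7014 to 9988 in SWAT SD, and all 7 leukocyte markers together to at most 54.3 CPM in any library.

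Expression of the members spanned a wide range. Per kilobase of coding sequence, in CPM per kilobase (RPKM), the median member stood at 528, and the highest were Rps14 (2428) and Rps15 (2308), small-subunit proteins of the platform and head. Rps4x, the X-linked small-subunit gene, had 1187 RPKM and Rpl3, a core protein near the peptidyl transferase centre, had 639 RPKM. The near copies were low, with 75.4 RPKM for Rpl7l1, 63.1 for Rps27l, 45.4 for Rpl22l1 and 17 for Rpl39l, against 623, 1064, 411 and 721 RPKM for Rpl7, Rps27, Rpl22 and Rpl39. Rpl23a, a core large-subunit protein, was at 1.91 RPKM with a mean of 29.4 reads per library. Its rows named as pseudogenes held 0.900 reads on average. All 163 rows named as pseudogenes of members held 0.00182% to 0.00463% of gene reads per library. Reads without a unique alignment, 16.6% to 25.5% of all reads per library, are on no gene row. How many of them came from members is not known, so the level of a member with close copies, such as Rpl23a, may be too low.

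Ribosomal protein genes took a smaller share of gene reads on HFD than on SD in SWAT. The shares were 1.94, 2.06, 1.74, 1.63 and 1.73% in SWAT HFD libraries 1 to 5, against 2.35, 2.37, 4.20, 2.32 and 2.32% in SWAT SD libraries 1 to 5. Every SWAT HFD library was below every SWAT SD library, and SWAT SD 3 was far above the rest. The means were 1.82% ± 0.174 in SWAT HFD and 2.71% ± 0.830 in SWAT SD (SD, n = 5 each). The log2 difference was -0.54, with p = 0.00794 in an exact two-sided permutation test, the smallest that 5 against 5 allows, and p = 0.0397 after Benjamini-Hochberg adjustment over the 5 comparisons of the share. Without SWAT SD 3 the difference was -0.37 with an adjusted exact permutation p of 0.0794. Without VWAT SD 5, SWAT SD 5 and SWAT SD 3, a choice made after seeing the data, it was -0.37 with an adjusted exact permutation p of 0.0893.

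In VWAT the shares were 2.90, 1.71, 1.71, 1.998 and 2.35% in VWAT HFD libraries 1 to 5, against 2.83, 2.87, 2.35, 2.21 and 3.43% in VWAT SD libraries 1 to 5. The groups overlapped, since VWAT HFD 1 lay above 4 of the 5 VWAT SD libraries. The means were 2.13% ± 0.502 in VWAT HFD and 2.74% ± 0.485 in VWAT SD (SD, n = 5 each), a log2 difference of -0.37 that did not pass the test (exact permutation p = 0.0952, adjusted 0.238). The diet difference was 0.17 higher in VWAT than in SWAT on the log2 scale (exact permutation p = 0.529, adjusted 0.661). Between depots, VWAT differed from SWAT by 0.04 on SD (exact permutation p = 0.921, adjusted 0.921) and by 0.20 on HFD (p = 0.238, adjusted 0.397, exact permutation), neither past the threshold of 0.05. With 18 libraries the depot difference on SD was -0.09. In bulk libraries, fewer cells of a type and less RNA per cell cannot be told apart.

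The balance between subunits also differed between libraries. Small-subunit members held 47.3, 49.4, 48.8, 46.9 and 46.6% of ribosomal protein reads in VWAT HFD libraries 1 to 5, against 46.8, 56.3, 55.8, 56.5 and 52.0% in VWAT SD libraries 1 to 5. VWAT SD 1 lay inside the range of VWAT HFD, and the other 4 VWAT SD libraries lay above it. In SWAT the small-subunit portion was 48.0, 51.6, 46.6, 49.2 and 47.7% in SWAT HFD libraries, against 49.9, 53.1, 54.0, 56.9 and 52.9% in SWAT SD libraries. Here the groups overlapped through SWAT HFD 2 and SWAT SD 1. These portions are given as a description without a test.

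**Figure D1:**
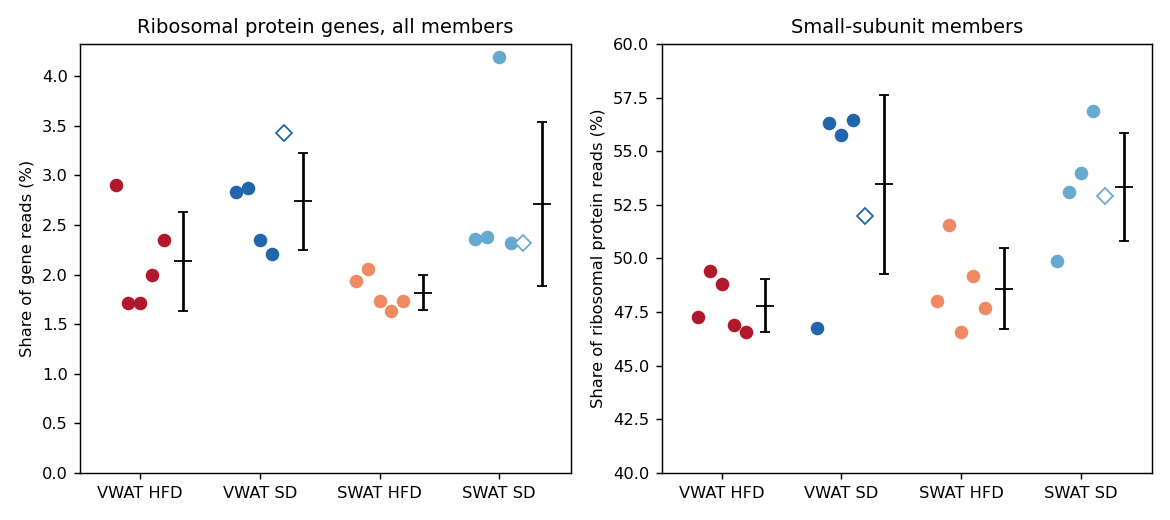
Share of gene reads on all 79 ribosomal protein genes (left, %) and portion of those reads on small-subunit members (right, %, axis from 40 to 60). Each point is 1 library, open diamonds are VWAT SD 5 and SWAT SD 5, and bars are the mean ± SD of the 5 libraries. All SWAT HFD libraries sit below all SWAT SD libraries on the left, where SWAT SD 3 reaches 4.20%.

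Gene by gene, a set of members was lower on HFD in VWAT. edgeR's quasi-likelihood test over 14242 genes called 24 of 77 members lower and 3 higher in VWAT HFD than in VWAT SD (Benjamini-Hochberg adjusted p under 0.05). Of all genes tested, 26% were called lower and 19.7% higher, so the share of members that fell was near that of all genes and few rose. The median log2 fold change was -0.28 over the members and -0.03 over all genes tested. Of the 32 small-subunit members, 13 fell and 0 rose, with a median of -0.40. Of the 45 large-subunit members tested, 11 fell and 3 rose, with a median of -0.21. Leaving out VWAT SD 5 and SWAT SD 5, 18 members were lower and 2 higher (background 22.7% lower and 13.8% higher), and leaving out VWAT SD 1 alone, 27 were lower and 13 higher (background 29.3% and 29.8%). Without VWAT SD 2 the counts were 15 lower and 1 higher (background 19.1% and 11.5%).

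In SWAT the same test called 10 members lower and 0 higher in SWAT HFD than in SWAT SD, where 0.702% of all genes were called lower and 0.857% higher. The median log2 fold change was -0.57 over the members and -0.04 over all genes. 5 were small-subunit members (Rps10, Rps14, Rps15, Rps16 and Rps27) and 5 large-subunit members, among them Rpl8, Rpl13, Rpl18 and Rpl36. All 10 were among the 24 that fell in VWAT, so the shared genes are 41.7% of the VWAT list and 100% of the SWAT list. Over all genes, 89 of the 100 lower in SWAT were also lower in VWAT, which is 2.41% of the VWAT list and 89.0% of the SWAT list. The SWAT calls lay close to the threshold, with adjusted p from 0.0442 to 0.0488. The count was 7 lower with 18 libraries (background 0.286%), and 0 of any gene without SWAT SD 3 as well (background 0%, either direction). In those 17 libraries 21 members had an unadjusted p under 0.05, as did 15.8% of all genes. The count called was 0 without any 1 of 15 of the 20 libraries, SWAT SD 3 and all 10 HFD libraries among them. The share of all genes called in those 15 fits is not given here. A loss particular to the members can therefore not be read from this count. Omitting VWAT SD 1 gave 27 lower and 2 higher (11.4% of all genes lower), and omitting SWAT SD 1 gave 24 lower and 1 higher (8.38% lower). Omitting VWAT SD 5, VWAT SD 2 or VWAT SD 4 gave 15, 9 or 4 lower and 0 higher, with 1.64%, 0.927% and 0.256% of all genes lower. Over 20 libraries 46 members had an unadjusted p under 0.05, as did 34.2% of all genes. DESeq2 called 28 members lower in SWAT (background 7.82%) and 26 in VWAT (background 27.8%).

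**Figure D2:**
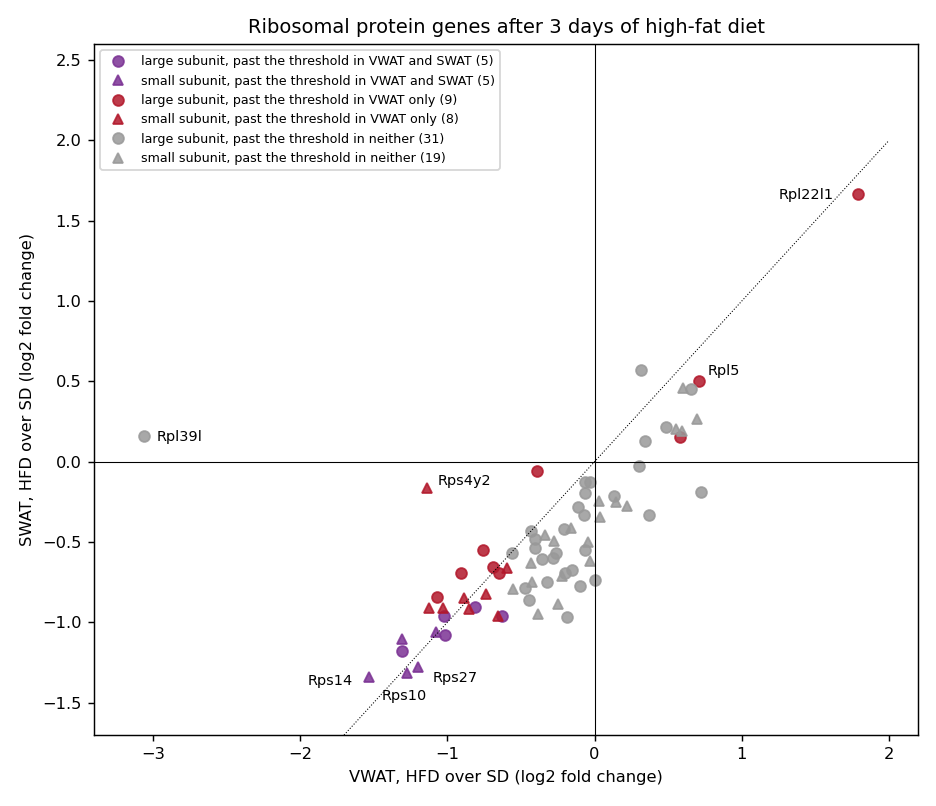
log2 fold change of the 77 tested members, HFD over SD, in VWAT (horizontal) and in SWAT (vertical). Circles are large-subunit and triangles small-subunit members, colours give the depots in which a member passed an adjusted p of 0.05, and the dotted line marks equal values. 56 members lie below 0 in both depots and 11 above 0 in both.

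Rps14, a small-subunit protein of the platform and the most abundant member per kilobase, had 746, 641, 640.1, 509 and 557 CPM in VWAT HFD libraries 1 to 5, against 873, 2063, 1777, 1631 and 1535 CPM in VWAT SD libraries 1 to 5. All VWAT HFD libraries were below all VWAT SD libraries, with VWAT SD 1 nearest to them. Its log2 fold change was -1.53 ± 0.29 (SE, edgeR adjusted p = 0.00311). In SWAT it had 588, 876, 549, 677 and 576 CPM in HFD libraries, against 889, 1409, 2367, 1981 and 1115 CPM in SD libraries. Again no library overlapped, SWAT HFD 2 being the highest on HFD and SWAT SD 1 the lowest on SD. The change there was -1.34 ± 0.29 (edgeR adjusted p = 0.0472).

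Rps27, a zinc-finger protein of the small subunit, had 217, 149, 157, 174 and 194 CPM in VWAT HFD libraries, against 257, 445, 334, 303 and 492 CPM in VWAT SD libraries. In SWAT it had 162, 219, 146, 137 and 139.6 CPM on HFD, against 276, 321, 651, 298 and 293 CPM on SD. The groups did not overlap in either depot, and SWAT SD 3 had 651 CPM while the next SWAT SD library had 321. The log2 fold changes were -1.20 ± 0.26 in VWAT (adjusted p = 0.00354) and -1.28 ± 0.26 in SWAT (adjusted p = 0.0442, both from edgeR).

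Rps10, which sits at the mRNA entry side of the small subunit, averaged 235 ± 41.3 CPM in VWAT HFD and 506 ± 169 CPM in VWAT SD (SD, n = 5 each), a change of -1.28 (edgeR adjusted p = 0.00364). In SWAT it averaged 230.1 ± 52.2 CPM on HFD and 539.5 ± 221 CPM on SD, a change of -1.32 (edgeR adjusted p = 0.0472). Rps15, a head protein required for the export of small-subunit precursors from the nucleus, averaged 642 ± 86.4 CPM in VWAT HFD and 1406 ± 344 CPM in VWAT SD, and fell by 1.30 on the log2 scale there and by 1.10 in SWAT. Other small-subunit members called lower in VWAT were Rps3, Rps9, Rps16, Rps18, Rps19, Rps28 and Rps4y2, between -0.66 and -1.14.

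Among large-subunit members, Rpl36 had the lowest value that passed the test in VWAT, -1.31 ± 0.29 (edgeR adjusted p = 0.00374), and -1.18 in SWAT (adjusted p = 0.0477). Its 6 pseudogene rows held 177 reads on average, beside 5210.0 on the gene itself. Rpl19, which lies at the outer face of the subunit and bridges to the small one, averaged 367 ± 63.7 CPM in VWAT HFD and 689 ± 118 CPM in VWAT SD (SD, n = 5 each). It fell by 1.07 on the log2 scale in VWAT (edgeR adjusted p = 0.00354), and the SWAT value of -0.85 did not pass (adjusted p = 0.0566). Rpl8, a protein at the core of the subunit, fell by 0.81 in VWAT and by 0.91 in SWAT. Rpl3 had -0.43 in VWAT and -0.43 in SWAT, Rps4x had -0.34 and -0.46, and Rpl10, which completes the subunit late in its assembly, had -0.40 and -0.48, none of them past the threshold.

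3 members rose in VWAT, all of the large subunit, where 19.7% of all genes rose. Leaving out VWAT SD 1 gave 13 higher, where 29.8% of all genes were higher, so in both fits the members' share was below that of all genes. Over the 18 libraries the 2 called higher were Rpl22l1 and Rpl39l (background 13.8%), and Rpl4 and Rpl5 did not pass. Rpl5, which carries 5S ribosomal RNA together with Rpl11 and binds Mdm2, had 345, 146, 191, 246 and 289 CPM in VWAT HFD libraries, against 310.4, 83.7, 95.02, 89.9 and 120.2 CPM in VWAT SD libraries. 4 VWAT SD libraries were below all VWAT HFD libraries, and VWAT SD 1 was above 4 of them. The change was 0.71 ± 0.27 in VWAT (edgeR adjusted p = 0.0383), and 0.50 in SWAT (adjusted p = 0.182). Rpl4, which reaches into the exit tunnel, averaged 723 ± 206 CPM in VWAT HFD and 453 ± 257 in VWAT SD, and its change of 0.58 was at the edge of the threshold (edgeR adjusted p = 0.0497). Rps3a had 0.60, Rpl17 0.66 and Rps7 0.55 in VWAT, none past the threshold, and each was high in VWAT SD 1 as well. Rpl7 had 0.31 in VWAT and 0.57 in SWAT, also short of it.

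Rpl22l1, the near copy of Rpl22, had the largest positive change of the members over 20 libraries. It had 49.9, 17.04, 18.2, 33.9 and 46.1 CPM in VWAT HFD libraries, against 31.6, 3.27, 5.59, 1.33 and 3.67 CPM in VWAT SD libraries, where VWAT SD 1 alone reached the HFD range. In SWAT it had 25.3, 14.5, 17.8, 15.1 and 20.5 CPM on HFD, against 8.65, 8.47, 3.59, 2.99 and 4.98 CPM on SD, and all HFD libraries were above all SD libraries. The log2 fold change was 1.79 ± 0.54 in VWAT (edgeR adjusted p = 0.0135) and 1.67 ± 0.54 in SWAT, where it did not pass over all genes (adjusted p = 0.0746). Rpl22 itself had -0.06 in VWAT and -0.19 in SWAT, neither past the threshold. Per coding kilobase, Rpl22l1 made up 16.3% ± 4.31 of the sum of Rpl22l1 and Rpl22 in VWAT HFD and 4.52% ± 4.88 in VWAT SD. In SWAT it made up 12.0% ± 2.90 on HFD and 3.74% ± 1.62 on SD (SD, n = 5 each). With GC correction in 18 libraries its VWAT change was 0.93 (edgeR adjusted p = 0.0834).

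Rps27l, the near copy of Rps27, had 40.6, 12.3, 11.8, 21.6 and 24.7 CPM in VWAT HFD libraries, against 31.3, 4.48, 5.65, 6.76 and 17.05 CPM in VWAT SD libraries. VWAT SD 1 and VWAT SD 5 lay within the HFD range. Its change was 0.70 ± 0.39 in VWAT (edgeR adjusted p = 0.146) and 0.26 ± 0.39 in SWAT (adjusted p = 0.636), neither past the threshold, while its parent Rps27 fell in both depots. Rps27l made up 10.5% ± 3.52 of the sum of Rps27l and Rps27 per coding kilobase in VWAT HFD and 3.81% ± 4.03 in VWAT SD. In SWAT it made up 9.15% ± 2.46 on HFD and 3.53% ± 1.31 on SD (SD, n = 5 each). Rpl7l1 went the other way in its pair with Rpl7. It made up 8.08% ± 2.01 in VWAT HFD and 13.4% ± 5.21 in VWAT SD, and its own change was -0.39 ± 0.16 (edgeR adjusted p = 0.0462), which became 0.10 relative to the reads on the members. The portions of a pair are given without a test.

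Because 56 members had values below 0 in both depots, the fit was repeated with library sizes set to the summed reads on the members. On this scale a fall of abundant members raises the others, so the rises and falls are not separate results. The median over the members in VWAT was 0.21 here. Relative to the summed member reads, 9 fell and 16 rose in VWAT (background 2.72% lower and 31.7% higher), and 2 fell and 8 rose in SWAT (background 0.133% and 20.6%). The 2 that fell in SWAT, Rps10 (-0.64, edgeR adjusted p = 0.0395) and Rps27 (-0.59, adjusted p = 0.0361), were among the 9 of VWAT. Rps14, Rps15, Rps16, Rps18, Rpl19 and Rpl36 were also among the 9. Among the 16 that rose were Rps27a, which is made as a fusion with ubiquitin (0.68), and Rps27l (1.09).

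GC content moved with these differences. Across the 77 members, the log2 fold change on HFD had a Spearman correlation with transcript GC content of -0.604 in VWAT and -0.597 in SWAT. Over 14045 genes with a GC value, the same correlation was -0.709 and -0.714 (genes are not independent, and no p is given). The 24 members that fell in VWAT had a median GC content of 54.5%, the 3 that rose 42.7% and the other 50 tested 50.7%. Rpl36 has 60.8% and Rps14 55.8%, while Rpl22l1 has 40.6% and Rpl5 42.7%.

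The same trend stood between libraries of 1 group. The correlation across all genes of a library's deviation with GC content was -0.646, -0.283, -0.428, -0.677 and -0.701 in VWAT HFD libraries 1 to 5, against -0.601, 0.714, 0.626, 0.642 and 0.579 in VWAT SD libraries 1 to 5. It was -0.605, 0.0781, -0.641, -0.502 and -0.596 in SWAT HFD libraries, against -0.178, 0.181, 0.695, 0.566 and 0.498 in SWAT SD libraries. VWAT SD 1 thus lay with the HFD libraries and SWAT SD 3 at the top of its group. Reads without an annotated feature were 4.11% ± 0.381 in VWAT HFD and 6.60% ± 2.81 in VWAT SD, 3.75% ± 0.534 in SWAT HFD and 5.48% ± 2.47 in SWAT SD (SD, n = 5 each). Reads without a unique alignment, the larger class, were 19.96% ± 0.971 in VWAT HFD and 22.40% ± 2.38 in VWAT SD. In SWAT they were 17.23% ± 0.563 on HFD and 20.78% ± 2.98 on SD (SD, n = 5 each). The libraries of the diets overlapped in this class in both depots. In SWAT the overlap came only from SWAT SD 5 (17.58%). The other SWAT SD libraries were at 19.49% or more, and the SWAT HFD libraries at 17.94% or less. Markers of mature adipocytes (Adipoq, Plin1, Plin4, Cidec and Lep) summed to 2.37 to 8.27 CPM in VWAT HFD, 2.43 to 15.6 in VWAT SD, 2.10 to 7.10 in SWAT HFD and 6.47 to 20.4 in SWAT SD. The difference in this sum lay mostly in Plin4, a lipid droplet protein, with 1.56 CPM in VWAT HFD, 7.70 in VWAT SD, 3.996 in SWAT HFD and 12.6 in SWAT SD. Adipoq, the adipokine adiponectin, was at 0.273 CPM in VWAT HFD, 0.202 in VWAT SD, 0.232 in SWAT HFD and 0.248 in SWAT SD. Plin1 had 2.94 CPM in VWAT HFD and 1.79 in VWAT SD, but 0.888 in SWAT HFD and 1.89 in SWAT SD. Cidec was lower on HFD in both depots, with 0.194 against 0.554 CPM in VWAT and 0.0278 against 0.177 CPM in SWAT. Lep averaged at most 0.0773 CPM in any group. The part that base composition, unassigned reads and these markers have in the diet differences was not tested.

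With a correction for GC content in the 18 libraries, 6 members were lower and 0 higher in VWAT (background 6.87% lower), with a median over the members of -0.03. In SWAT 9 were lower and 0 higher (background 0.46% lower), with a median of -0.52. Rps14, Rps16 and Rps27 were called lower in both depots in this fit. Rps14 had -0.86 in VWAT (edgeR adjusted p = 0.0108) and -0.95 in SWAT (adjusted p = 0.0183). Rps27 had -1.09 in VWAT (edgeR adjusted p = 0.0131) and -1.35 in SWAT (adjusted p = 0.0150). Rpl5 was at -0.12 in VWAT, below 0, so the direction of its rise turned with this correction. Members called in VWAT over 20 libraries that did not pass here included Rps10 (-0.43, adjusted p = 0.161), Rps15 (-0.45, adjusted p = 0.0695) and Rpl36 (-0.27, adjusted p = 0.495, all in edgeR). Of the 9 lower in SWAT, 5 had been called lower over 20 libraries. All SWAT calls of members, Rps14, Rps16 and Rps27 among them, were lost when SWAT SD 3 was also left out. With GC correction in those 17 libraries, 0.0962% of all genes were called in SWAT and the median over the members was -0.21.

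**Figure D3:**
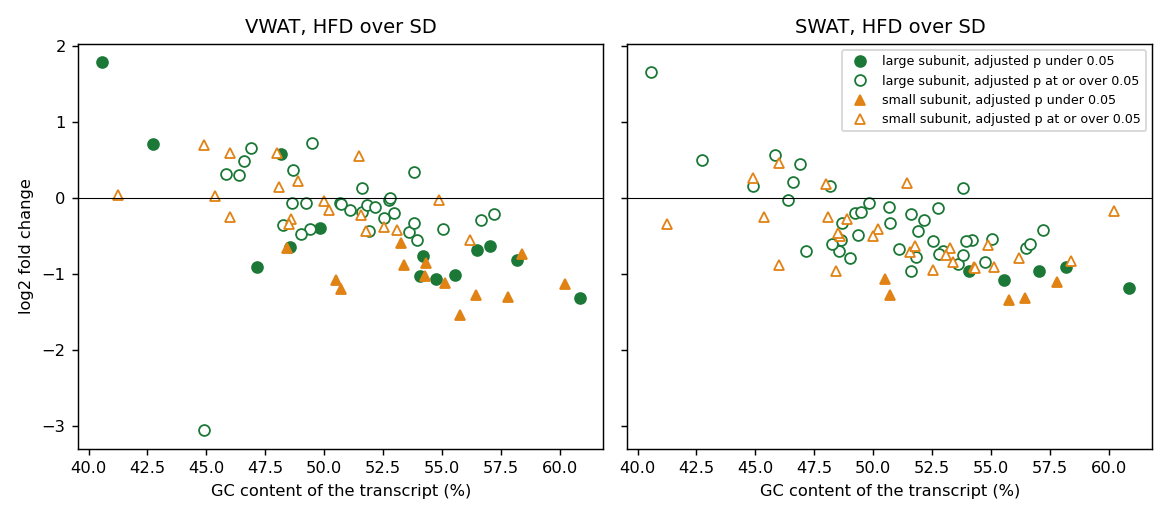
log2 fold change of the 77 tested members, HFD over SD, against the GC content of their transcripts (%), in VWAT (left) and SWAT (right). Circles are large-subunit and triangles small-subunit members, and filled symbols passed an adjusted p of 0.05. Members of high GC content lie lower in both panels, and Rpl39l is the circle at -3.06 in VWAT.

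**Figure D4:**
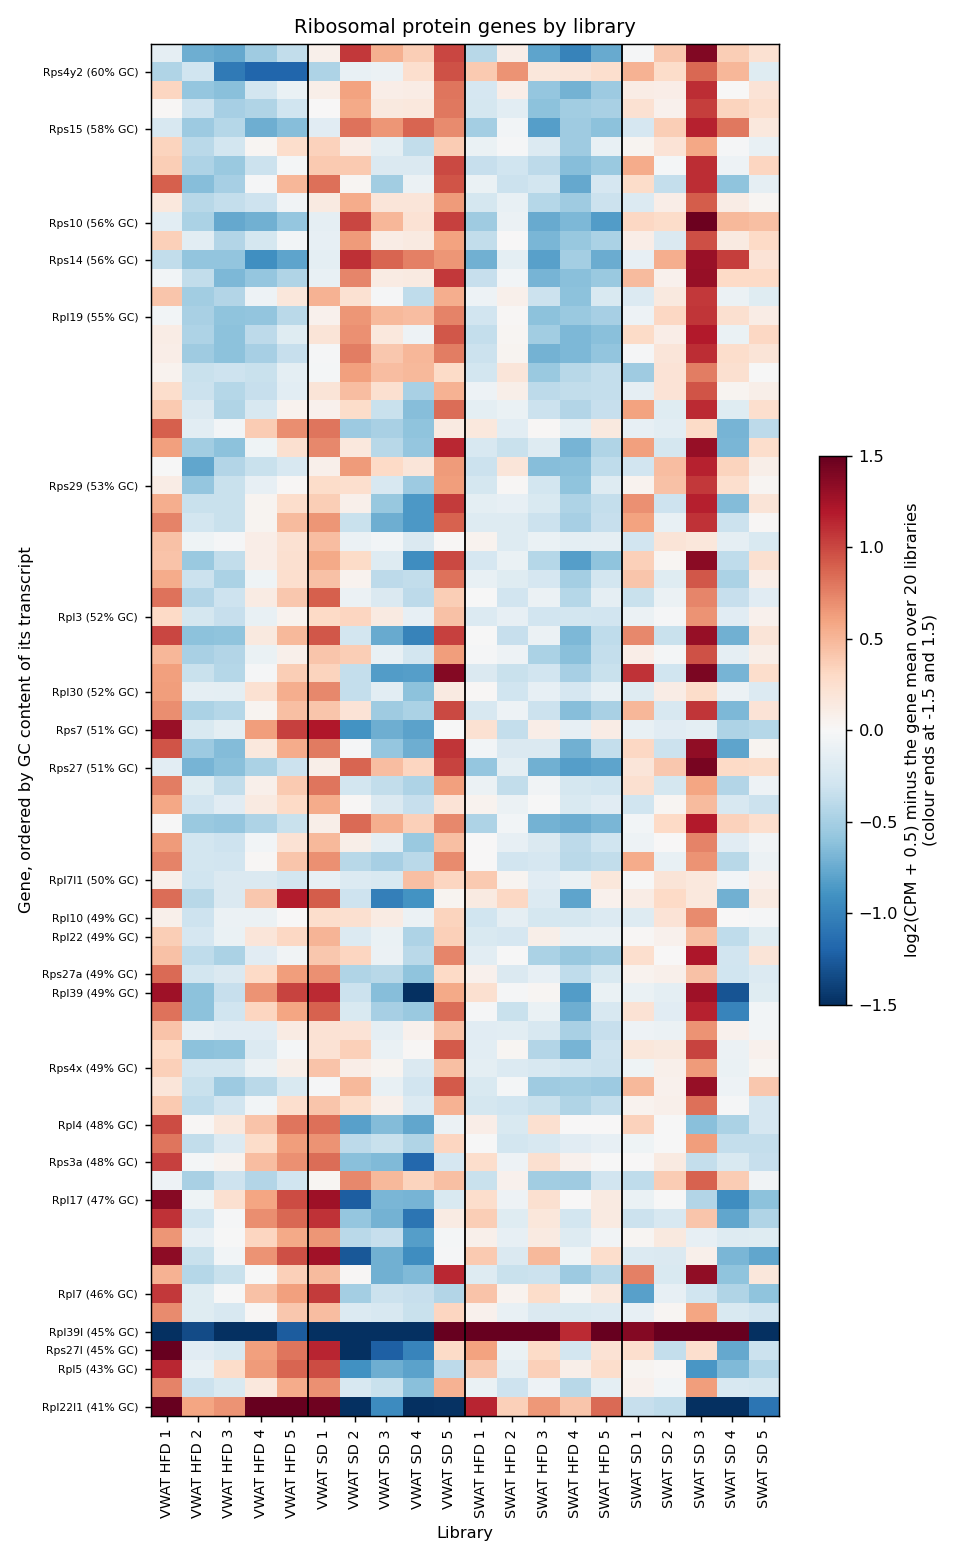
log2(CPM + 0.5) of 73 tested members minus the gene's mean over the 20 libraries, with genes in order of GC content (highest at the top, 24 labelled) and libraries by group. Red is above the gene's mean and blue below, with colours ending at -1.5 and 1.5. VWAT SD 1 resembles VWAT HFD 1, 4 and 5 in the lower rows, SWAT SD 3 is red in most rows, and the Rpl39l row follows the depot except in VWAT SD 5 and SWAT SD 5.

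Between depots, 2 near copies were lower in VWAT than in SWAT on HFD, of 3.63% of all genes called lower (18 libraries, the same 2, background 6.23%). Rpl39l, the near copy of Rpl39 that mice use in testis, had 4, 6, 2, 1 and 8 reads in VWAT HFD libraries 1 to 5, against 209, 208, 88, 69 and 224 in SWAT HFD libraries 1 to 5. These are 0.109, 0.198, 0.0929, 0.0285 and 0.244 CPM in VWAT HFD, against 5.62, 5.81, 5.38, 3.35 and 4.72 CPM in SWAT HFD. No library overlapped. The log2 fold change was -5.16 ± 1.36 (edgeR adjusted p = 0.0265), and pooled reads gave a SWAT level 37.8 times the VWAT level (95% exact interval 24.5 to 61.3, counting error only). The call over 20 libraries was lost without any VWAT HFD library, SWAT HFD 2 or SWAT HFD 5 (adjusted p 0.0504 to 0.0798), and over 18 libraries its adjusted p was 2.37e-08.

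On SD, Rpl39l had 1, 0, 0, 0 and 136 reads in VWAT SD libraries 1 to 5, against 147, 117, 227, 69 and 0 in SWAT SD libraries 1 to 5. VWAT SD 5 and SWAT SD 5 went against the depot pattern, and their depot markers also went against their labels. A count of 0 allows up to 0.0701 CPM in SWAT SD 5 and up to 0.200 CPM in VWAT SD 2. Over 20 libraries the depot difference on SD was -1.94 ± 1.13 (edgeR adjusted p = 0.769), and 0 of 77 members and 0 of all genes (0%) were called, with 0 members and 1009 genes at an unadjusted p under 0.05. DESeq2 called 0 members and 9 genes there. Over 18 libraries Rpl39l passed the test (adjusted p = 3.28e-08 in edgeR, with 4.99% of all genes lower) and was the only member that did. With 1 read in 4 VWAT SD libraries and 560 in 4 SWAT SD libraries, the SWAT level was 465 times the VWAT level (95% exact interval 83.1 to 18406). Rpl39 itself differed by -0.05 on SD and 0.66 on HFD, not past the threshold.

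The diet comparison of Rpl39l in VWAT turned on the same library. Over 20 libraries the change was -3.06 ± 1.32 (edgeR adjusted p = 0.0627), and over 18 libraries it was above 0 and passed the test (adjusted p = 0.0112). The reads behind it were few, 21 in 5 VWAT HFD libraries and 1 in VWAT SD libraries 1 to 4. Their ratio was 11.9 (95% exact interval 1.91 to 491, counting error only). In SWAT the change was 0.16 (edgeR adjusted p = 0.921).

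Epithelial markers (Epcam, Krt8, Krt18 and Krt14) followed the depot in the same libraries. They summed to 1.41 to 4.59 CPM in VWAT HFD, against 39.0 to 214 CPM in SWAT HFD. On SD they were at 466 CPM in VWAT SD 5 and 0.685 to 6.12 CPM in the other VWAT SD libraries, against 0.888 CPM in SWAT SD 5 and 107 to 499 CPM in the other SWAT SD libraries. Rpl39l spanned 3.35 to 7.27 CPM over those SWAT SD and the SWAT HFD libraries. The part of epithelial cells in the Rpl39l difference was not tested.

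Rps4y2 is listed in current annotation as Rps4l on chromosome 6, a transcribed processed pseudogene of Rps4x that lies inside the gene Tmtc1 on the opposite strand. Its counts are therefore uncertain, since the strand setting of the counting is not given in the sources used here. It had 13.4, 14.9, 8.59, 7.84 and 7.82 CPM in VWAT HFD libraries, against 24.4, 29.8, 20.8, 21.0 and 22.0 CPM in SWAT HFD libraries, with no overlap. The depot difference on HFD was -1.17 ± 0.26 (edgeR adjusted p = 0.0115), and -1.02 with GC correction in 18 libraries (adjusted p = 2.55e-04). On SD it had 13.3, 17.04, 17.4, 22.1 and 36.2 CPM in VWAT libraries, against 26.8, 22.4, 34.1, 26.2 and 16.2 CPM in SWAT libraries. The difference over 20 libraries was -0.20 (edgeR adjusted p = 0.891). Leaving out VWAT SD 5 and SWAT SD 5, the VWAT values ended at 22.1 CPM and the SWAT values began at 22.4 CPM. Over those 18 libraries Rps4y2 was not called on SD. With GC correction in them it was called lower in VWAT (background 7.11% lower). Its fall on HFD in VWAT, -1.14 (edgeR adjusted p = 0.00441), was -0.28 after GC correction.

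**Figure D5:**
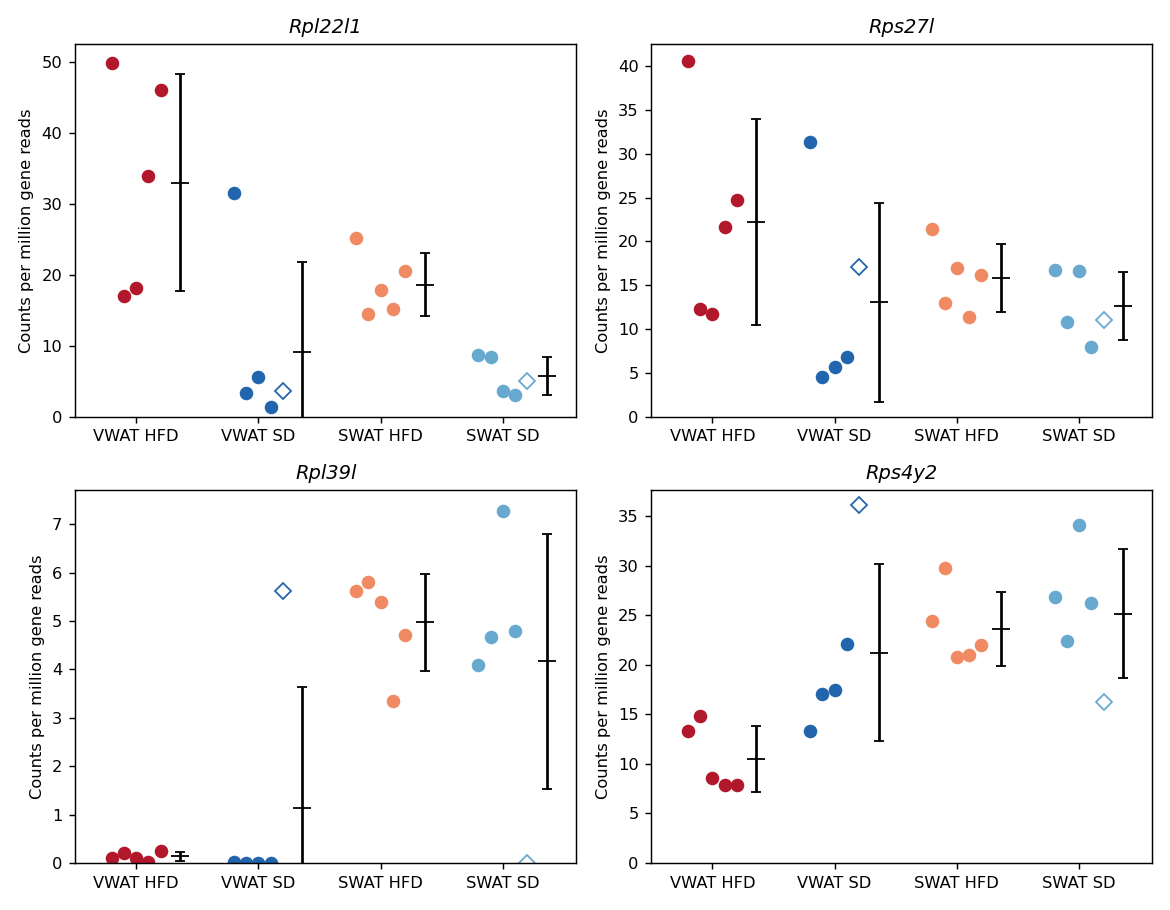
Levels (CPM) of 4 near copies, Rpl22l1, Rps27l, Rpl39l and Rps4y2, by library. Open diamonds are VWAT SD 5 and SWAT SD 5, and bars are the mean ± SD of the 5 libraries, cut at 0. Rpl39l is at most 0.244 CPM in the VWAT HFD libraries and 5.61 CPM in the library labelled VWAT SD 5.

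No other member passed the test between depots over 20 libraries. On HFD the largest positive values in VWAT over SWAT by p were those of Rps27a (0.48, edgeR adjusted p = 0.223), Rpl30, a large-subunit protein (0.40, adjusted p = 0.259), and Rpl4 (0.48, adjusted p = 0.263). Rpl7l1, a paralog of Rpl7 that takes part in ribosome assembly, had -0.27 (adjusted p = 0.367). On SD the smallest p-values belonged to Rpl7 (0.50), Rpl22l1 (0.69) and Rpl17 (0.37) above 0, and below 0, after Rpl39l, to Rps29 (-0.25). No member passed the test of the diet by depot interaction (0% of all genes in edgeR), with 1 member and 605 genes at an unadjusted p under 0.05, and DESeq2 called 0 members and 0 genes. The 1 member was Rps4y2 (-0.97), a value that includes VWAT SD 5 and SWAT SD 5. Over the 18 libraries without them 0 members passed, and the lowest value of any member was -0.63. There 5 members had an unadjusted p under 0.05, as did 3.05% of all genes.

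Genes of ribosome supply that are no members were counted in the same fit, in which 26% of all genes fell and 19.7% rose in VWAT, and 0.702% fell and 0.857% rose in SWAT. Of 8 ribosomal proteins with other symbols, 6 fell and 0 rose on HFD in VWAT and 2 fell and 0 rose in SWAT. Fau, whose product is cleaved into a ubiquitin-like part and a small-subunit protein, averaged 148 ± 23.0 CPM in VWAT HFD and 298 ± 47.7 CPM in VWAT SD (SD, n = 5 each), a change of -1.17 (edgeR adjusted p = 0.00311), and had -0.98 in SWAT (adjusted p = 0.0477). Rplp2, a stalk protein, fell by 1.09 in VWAT. Of 75 mitochondrial ribosomal protein genes tested, 29 fell and 2 rose in VWAT, with a median of -0.36. In SWAT 0 passed, with 16 at an unadjusted p under 0.05 (all genes 34.2%) and 6 called by DESeq2 (all genes 14.8%). Mrpl23 had -1.09 and Mrps26 -1.16 in VWAT, both past the threshold.

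Among other mRNAs with terminal oligopyrimidine tracts and the elongation factors, 7 of 15 rose and 2 fell in VWAT, with a median of 0.53, where 19.7% of all genes rose and 26% fell. Pabpc1, the cytoplasmic poly(A)-binding protein, averaged 1017 ± 109.7 CPM in VWAT HFD and 463 ± 109 CPM in VWAT SD (SD, n = 5 each), a change of 1.01 (edgeR adjusted p = 0.00311), and Hnrnpa1, an RNA-binding protein, rose by 1.10. Of 30 initiation factor genes, 11 rose and 9 fell, with Eif3k (-1.08) and Eif3f (-1.16), subunits of eIF3, lower. Of 31 ribosome biogenesis genes, 8 rose and 8 fell, close to the shares of all genes, with Rrp9 (-1.20) and Pes1 (-0.83) lower. Of 16 genes of RNA polymerase I and MYC, 2 rose and 5 fell, with Polr1b, a polymerase subunit, at -0.94 and Ubtf, its ribosomal DNA factor, at -0.51, which turned above 0 with GC correction. Of 25 genes of the mTORC1 pathway tested, 3 rose and 11 fell, including Akt1s1 (the PRAS40 protein, -1.39) and 2400001E08Rik, now named Lamtor1 (-1.05). In SWAT none of the genes in these 5 lists passed the edgeR test, while 8 of the elongation, 16 of the initiation, 6 of the biogenesis, 2 of the polymerase I and 8 of the mTORC1 list had an unadjusted p under 0.05, beside 34.2% of all genes. DESeq2 called 3, 10 and 1 genes of the elongation, initiation and biogenesis lists in SWAT, where it called 14.8% of all genes in either direction.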

How the data were processed

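RNA was measured in 20 libraries of sorted cell pools. Per the labels' protocols, polyadenylated RNA was made into stranded libraries with a dUTP kit and sequenced as single-end 75-base reads. The submitters' processing notes name TopHat, HTSeq and mm9. No source used here gives their versions, the annotation or the strand setting. The authors deposited whole-number read counts per gene symbol, with no normalization.

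The table has 33929 gene rows. The 25 rows whose symbols had become dates were left out, as were 5 summary rows, which held 21.8% to 37.0% of all reads (mean 27.0%). CPM is relative to the reads on named genes. RPKM uses the coding length of principal transcripts in GENCODE vM21. GC content comes from the same annotation. edgeR 4.0.16 (R 4.3.3, limma 3.58.1) was fitted to the 4 groups at once with TMM, its expression filter and robust quasi-likelihood, on 14242 genes, with Benjamini-Hochberg adjustment over all of them at 0.05. The standard error of a log2 fold change is the change divided by the root of F. Shares were tested by exact two-sided permutation on the log2 scale (scipy 1.17.1). The scripts were tested on simulated data. The GC and length corrections used a lowess offset (span 0.3, 3 iterations). Alternatives were DESeq2 1.42.0, no filter, a replicate block, other library sizes and denominators, a covariate for unassigned reads and fewer libraries. Intervals of pooled reads are exact at 95% and cover counting error only, and a count of 0 is read as up to 3 reads.

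Replicate numbers were checked for pairing by correlating the deviations of same-numbered libraries from their group means, which ranged from -0.65 to 0.57. No comparison had all its pairs above 0.1, so the numbers were not used as pairs in the main fit. Between VWAT HFD and SWAT HFD the values for libraries 1 to 5 were 0.498, 0.361, 0.0711, 0.189 and 0.143. The -0.65 came from VWAT SD 5 and SWAT SD 5, whose depot markers go against their labels. The check therefore cannot exclude that same-numbered libraries share mice. Libraries of 1 group differed by far more than counting noise (chi-square per degree of freedom 18.8 to 439 over 40 pairs), so none was counted as a repeat of another. Members, lists and named genes were chosen with earlier results of these data known. The named genes are the 5 members of highest mean CPM, the 6 higher and 6 lower of smallest p for diet in VWAT, 3 and 3 in each other comparison, the near copies with their parents, and 2 of smallest p in each list of pathway genes. Others named for a count or a role were chosen after their values were seen. A few members are counted in the totals and not reported here by name.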

Additional observations from a re-analysis of the deposited data

Results flagged for a closer look

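Of 156 groups of 5 libraries tested, 22 held a library farther from its neighbours than Dixon's 95% limit allows. Chance gives about 1 in 20 for independent groups. These groups are not independent, since all use the same 20 libraries and many of the genes were named for a small p. The count of 22 is therefore a description. SWAT SD 3 accounts for 8, all as the highest of SWAT SD. Its share of gene reads on ribosomal protein genes was 4.20%, and it had 1025 CPM of Rpl19, 1211 of Rpl3, 231.8 of Rpl39, 932.4 of Rps10, 651.4 of Rps27, 1426 of Rps4x and 459 of Fau.

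VWAT SD 1 accounts for 6. It was the highest of VWAT SD for Rpl22l1 (31.6 CPM), Rpl5 (310.4 CPM), Rpl17 (260.7 CPM), Rpl7 (979 CPM) and Rps7 (367.7 CPM), and the lowest for Rps15 (813.2 CPM). The library labelled VWAT SD 5 stood apart with 5.61 CPM of Rpl39l.

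Among HFD libraries, VWAT HFD 1 was the highest of its group for Rpl7l1 (58.2 CPM) and Mrpl23 (15.0 CPM). SWAT HFD 2 was the highest of SWAT HFD for Akt1s1 (80.6 CPM), Eif3k (151.3 CPM), Mrps26 (25.4 CPM) and Rplp2 (501.4 CPM), and SWAT HFD 1 for Hnrnpa1 (85.2 CPM).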

How the results depend on the processing

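The lower share of ribosomal protein reads on HFD in SWAT kept its direction in every setting tried and lost its call with all reads as the denominator (-0.43, adjusted exact permutation p = 0.119), in 17 libraries (-0.37, p = 0.0893) and with replicate numbers as a block (-0.54, p = 0.3125, where pairs of 5 cannot go below 0.0625 before adjustment). The depot difference of the share on SD turned below 0 with all reads (-0.0147) and in 18 libraries (-0.0926). Leaving out 1 library at a time, the share differences ran from -0.58 to -0.37 for SWAT diet, from -0.49 to -0.29 for VWAT diet, from -0.0470 to 0.21 for depot on SD, from 0.09 to 0.28 for depot on HFD and from -0.0025 to 0.25 for the interaction. The counts of members called ran from 16 to 40, from 0 to 29, from 0 to 1, from 1 to 2 and from 0 to 0 for VWAT diet, SWAT diet, depot on SD, depot on HFD and the interaction. Where the share of all genes is given, these counts moved with it. The 40 came without VWAT SD 1, where 29.3% of all genes were lower and 29.8% higher. The 16 came without VWAT SD 2 (19.1% lower and 11.5% higher), and the 29 in SWAT without VWAT SD 1 (11.4% lower).

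Counts of members called are followed in brackets by the share of all genes called in the same fit, in either direction. For diet in VWAT, 27 (45.7%) became 13 with GC correction (16.5%), 6 with GC correction in 18 libraries (12.8%) and 12 with unassigned reads as a covariate (13.2%). For diet in SWAT, 10 (1.56%) became 29 with DESeq2 (14.8%), 3 without the filter (0.192%), 20 with the replicate block (14.7%), 3 with GC correction (0.625%), and 0 with that covariate (0%), in 17 libraries (0%) and in 17 with GC correction (0.0962%). For depot on SD, 0 (0%) became 1 in 18 libraries (8.45%), 2 there with GC correction (12.8%), 1 in 17 libraries (8.41%) and 3 there with GC correction (12.4%). For depot on HFD, 2 (6.45%) became 1 without the filter (3.28%). The cause was not tested. Rpl5 for diet in VWAT turned below 0 with GC correction (-0.12 in 20, in 18 and in 17 libraries). Rpl7l1 turned above 0 relative to member reads (0.10), as did Ubtf (0.0178), which was also above 0 with GC correction (0.0304 in 20 libraries and 0.10 in 18 and in 17). Over 31 gene results and their 992 alternatives, 764 kept direction and call, 220 lost the call and 8 turned.

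The replicate block called 6 members higher and 22 lower for diet in VWAT, where 23.2% of all genes were higher and 25% lower, and 1 higher and 19 lower in SWAT, where 7.14% were higher and 7.52% lower. Depth limits Rpl39l, Rpl3l and Rpl10l most, since they held 0 to a few reads in many libraries.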
